A study of Macaca fascicularis with 6 samples.

Results

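The genes described here are the ubiquitin E2 enzymes of cynomolgus monkey oocytes, taken as every gene whose identifier in the deposited count table begins with UBE2. The table held 33 such genes among 28164. Of these, 32 had enough counts to be tested, and UBE2U had no count in any library. The libraries came from wild-type, untreated Macaca fascicularis oocytes stripped of their surrounding cells, in 3 groups of 2. GV oocytes are the immature stage, before the nuclear membrane breaks down. IVM MII oocytes were matured in culture, and IVO MII oocytes in the animal, both to metaphase of the second meiotic division. How many oocytes and animals made up a library, and how old the animals were, is not known from the sources used here.

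Ubiquitin is a small protein that is joined to other proteins in a relay of enzymes. An E1 enzyme activates it, an E2 enzyme carries it as a thioester on a cysteine, and an E3 ligase brings the loaded E2 to the substrate. The E2 largely sets which kind of ubiquitin chain is built, and a few E2s carry related modifiers such as NEDD8 or ISG15 in place of ubiquitin. In oocytes the relay is best known for the anaphase-promoting complex, the E3 whose destruction of cyclin B and securin lets the meiotic divisions proceed.

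Library totals lay between 27707021 and 35515139 counts. Levels are CPM, counts scaled to the library total and by TMM factors (0.903 to 1.22), and a value after ± is the SD of 2 libraries for a level or the standard error of the fit for a log2 fold change. Calls are from edgeR's quasi-likelihood test over 15815 genes at an adjusted p of 0.05. Each level is a share of the RNA primed on poly(A) tails in its library, so that fewer RNA molecules per cell, shorter poly(A) tails and fewer cells of a type cannot be told apart. All 13 oocyte markers examined had counts, and their summed level was 32382 to 38983 CPM in GV, 16173 to 18485 in IVM MII and 9370 to 12155 for IVO MII. Of 12 cumulus and granulosa markers in the table, 4 (PTX3, INHA, FOXL2 and STAR) were at 0 in every library. The level summed over those 12 was 34.1 to 39.9 CPM in GV, 86.5 to 88.9 in IVM MII and 36.4 to 53.7 for IVO MII, and of the 6 tested 3 were called higher in IVM MII than in GV, as were 3 against IVO MII. The 9 theca, stroma and endothelium markers, with LUM at 0, summed to 326 to 384, 150.5 to 159 and 83.1 to 86.7 CPM. VWF alone gave 288 and 337 CPM of that sum in GV, 105 and 102 in IVM MII and 41.8 and 46.0 for IVO MII. PECAM1 of the same list went the other way, from 11.1 and 7.54 CPM in GV to 13.5 to 19.7 over the MII libraries, with calls that ended without GV replicate 2. The 6 blood markers, with CD3E and HBB at 0, summed to 13.5 to 13.7, 5.85 to 6.18 and 4.38 to 7.27 CPM. These sums moved with the groups compared below, and their part in the results was not tested.

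Most of the tested E2 genes differed between GV and mature oocytes, with as many higher as lower. In IVM MII, 10 were higher and 10 lower than in GV, 62.5% of the 32 tested, against 50.3% of all genes tested (25.6% higher and 24.7% lower). In IVO MII, 12 were higher and 12 lower, 75% against a background of 58.5% (28.1% higher and 30.5% lower). Between the MII groups, 4 were higher and 3 lower in IVM MII, 21.9% against 24.6% (14.3% higher and 10.3% lower), a share near the background. The median log2 fold changes of the 32 genes were 0.14, -0.38 and -0.02 in these comparisons, and those of all genes 0.06, -0.07 and 0.02. Of the 32, 9 were higher and 9 lower than GV in both MII groups, UBE2J1 among the lower, and 0 were called in opposite directions. Comparisons with GV share the GV libraries, which favours agreement between the 2 routes for any gene. The same counts over all genes were not made, so this agreement is not read as a trait of the E2 genes. UBE2J1 and UBE2M passed the count filter through GV alone, and without them 10 and 8 of 30 genes were called in IVM MII, with 12 and 11 for IVO MII.

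The scaling shifted some of these counts. With library totals in place of TMM factors, the median of all genes against GV moved from 0.06 to 0.35 in IVM MII, and 15 E2 genes rose and 8 fell. Of all genes, 5272 rose and 3004 fell there, in place of 4053 and 3908. Between the MII groups the median of all genes moved from 0.02 to 0.24, with the same 4 and 3 E2 genes called. DESeq2 and RLE factors each called 4 higher and 6 lower in IVM MII than in IVO MII, with UBE2L3 and UBE2T among the additions. Of all genes, 2075 and 1945 were lower by these settings, in place of 1635. Leaving out GV replicate 2 lowered the number of E2 genes higher in IVM MII than in GV. Leaving out replicate 1 of IVM MII or of IVO MII lowered the number higher in IVM MII than in IVO MII. Fewer of all genes were called in these fits as well, and whether the E2 genes lost a larger share was not tested.

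**Figure D1:**
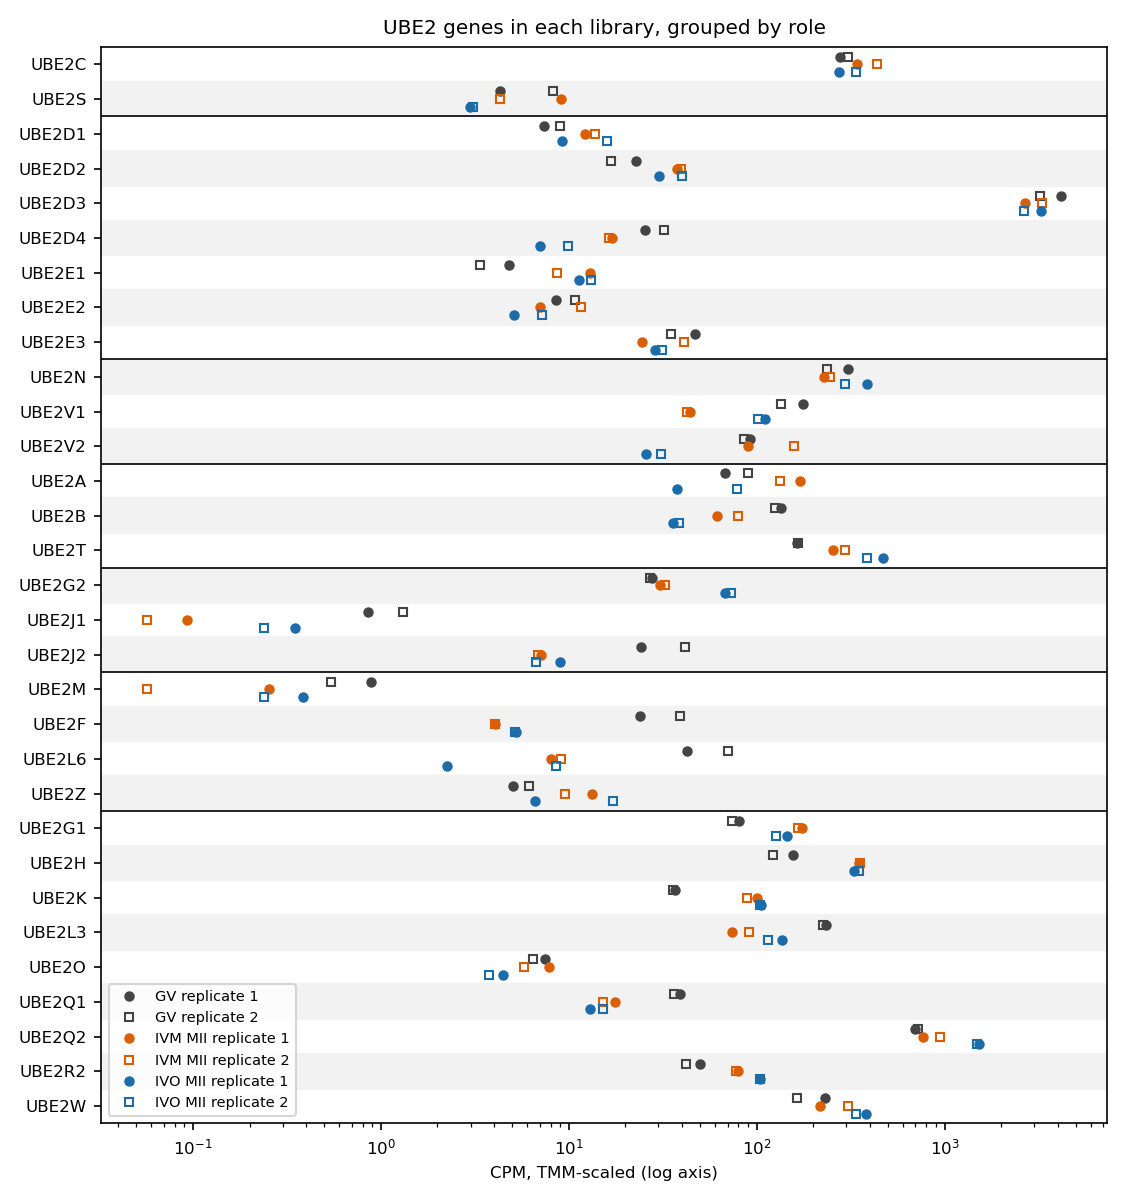
Level of the UBE2 genes reported here in each of the 6 libraries, in TMM-scaled CPM on a log axis, with genes in rows grouped by role and symbols for group and replicate. UBE2D3 lies at 2639.5 CPM or more in every library, while UBE2J1 and UBE2M lie at 1.32 CPM or less in every library.

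UBE2D3 dominated the family in every library. It stood at 4184 and 3226 CPM in GV, 2682 and 3307 in IVM MII, with 3274 and 2639.5 for IVO MII, and all 3 groups overlapped. Per kilobase of exon it held 33.3% to 46.4% of the level summed over the family and ranked first in each group. Behind it in GV came UBE2L3 at 299 ± 7.53 and UBE2C at 292 ± 20.3 CPM per kilobase, which did not differ beyond their spread. In IVM MII UBE2C followed at 387 ± 67.5 CPM per kilobase, and in IVO MII UBE2Q2 at 398 ± 4.52. The family took 0.552% to 0.724% of all counts. At the other end, UBE2U had 0 counts in each library, which allows up to 3 counts, or 0.0695 to 0.116 CPM.

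The largest fold among the called differences between the MII groups lay in the genes for lysine 63 chains, a kind of ubiquitin chain used in signalling and DNA repair rather than for degradation. These chains are built by UBE2N together with UBE2V1 or UBE2V2, E2-like proteins that lack the catalytic cysteine and direct where UBE2N joins ubiquitin. UBE2V2 (macFas5 chromosome 8, 48866507 to 48925386) stood at 92.5 and 85.3 CPM in GV, 89.8 and 158 in IVM MII, with 25.8 and 31.0 for IVO MII. Its IVM MII libraries lay apart from each other but both lay well above IVO MII. UBE2V2 was 4.36-fold higher in IVM MII than in IVO MII (log2 fold change 2.12 ± 0.28, edgeR adjusted p = 3.47e-04). It was 3.13-fold lower in IVO MII than in GV (adjusted p = 3.54e-04 by edgeR), while IVM MII did not differ from GV by the test (0.48 ± 0.27). With library totals (0.74) or without IVM MII replicate 1 (0.86), that last comparison was called as well.

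UBE2V1 (chromosome 10, 81880336 to 81918188) went the other way. It stood at 176 and 134 CPM in GV, 44.2 and 42.7 in IVM MII, with 110.5 and 102 for IVO MII, and there was no overlap between any groups. It was 2.44-fold lower in IVM MII than in IVO MII (log2 fold change -1.29 ± 0.22, edgeR adjusted p = 0.00180). Against GV it was 3.57-fold lower in IVM MII (-1.84 ± 0.23) and 1.46-fold lower in IVO MII (-0.55 ± 0.22, edgeR adjusted p = 0.0478). That smaller fall lost its call without GV replicate 1 (-0.34), either IVM MII library (-0.54 each), or IVO MII replicate 1 (-0.60) or 2 (-0.48). DESeq2 (-0.52), no low-count filter (-0.54), RLE factors (-0.53), library totals (-0.48) and a fit to the 4 libraries compared (-0.55) also ended it. Between the MII groups, UBE2V1 and UBE2V2 kept their calls under all 14 alternatives run.

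Within each library the level per kilobase of UBE2V1 was 0.539 and 0.445 times that of UBE2V2 in GV, 0.139 and 0.0768 times in IVM MII, and 1.21 and 0.928 times in IVO MII. These ratios do not depend on the scaling between libraries, and the 3 groups did not overlap. UBE2N, their shared catalytic partner, ranged from 228 to 385 CPM over the 6 libraries and passed the test in no comparison (IVM MII minus IVO MII -0.52 ± 0.24, edgeR adjusted p = 0.131).

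The 25 ligases listed for partnering single E2s had 22 tested genes, of which 2 were higher and 3 lower in IVM MII than in IVO MII, with a median log2 fold change of -0.07. That is 22.7% of the 22, near the 24.6% of all genes. Leaving out any 1 of the 4 MII libraries changed which ligases were called, as given for each gene below. With library totals, 5 were higher and 1 lower. RNF8, which acts with UBE2N at DNA breaks, stood at 32.6 and 27.8 CPM in IVM MII, both above the IVO MII libraries, and was 2.52-fold higher. HLTF and SHPRH build lysine 63 chains on the sliding clamp PCNA. HLTF was 2.88-fold lower in IVM MII (17.7 and 21.1 against 65.6 and 46.3 CPM) and SHPRH 2.08-fold lower (18.4 against 38.3 CPM). TRAF6, an E3 of immune signalling, was 1.62-fold higher (78.5 against 48.6 CPM), and RNF168, which extends the signal of RNF8, 1.80-fold lower. The HLTF call held under all 14 alternatives. RNF8 lost its call without IVM MII replicate 1 (1.25, adjusted p = 0.0504 by edgeR). SHPRH lost it without either IVM MII library, without IVO MII replicate 1 (-0.71) or with library totals (-0.83). TRAF6 kept its call in 8 of 14 alternatives and lost it without any 1 of the 4 MII libraries (0.62 to 0.79). RNF168 kept it in 5 of 14 and lost it with GV replicate 1 or 2 left out (-0.85 each), with IVM MII replicate 1 (-1.10) or 2 (-0.61) left out, or with IVO MII replicate 1 (-0.68) left out.

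**Figure D2:**
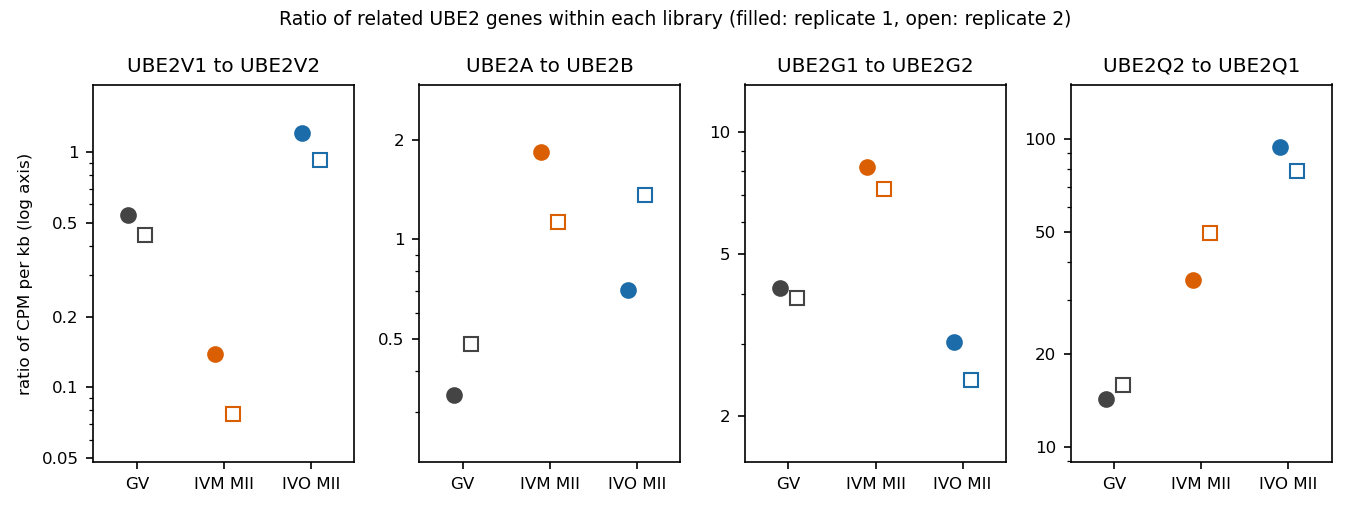
Ratio of the level per kilobase of related UBE2 genes within each library, on log axes, by group, with filled circles for replicate 1 and open squares for replicate 2. The UBE2V1 to UBE2V2 ratio is lowest in IVM MII (0.139 and 0.0768) and highest in IVO MII (1.21 and 0.928), and the UBE2G1 to UBE2G2 ratio is highest in IVM MII.

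UBE2A and UBE2B, near-identical homologs of yeast RAD6 that ubiquitinate histone H2B and PCNA, were both higher in IVM MII than in IVO MII. UBE2A (chromosome X, 116279796 to 116290375) stood at 67.9 and 90.5 CPM in GV, 169.8 and 134 in IVM MII, with 37.6 and 78.9 for IVO MII. The IVM MII libraries lay above all others, while IVO MII overlapped GV. Its log2 fold change between the MII groups was 1.38 ± 0.32, 2.60-fold, with an edgeR adjusted p of 0.00952. The call ended without IVM MII replicate 1 (1.22, adjusted p = 0.0600), and the value was 2.02 without IVO MII replicate 2. UBE2A was also called 1.92-fold higher in IVM MII than in GV (0.94 ± 0.32). That call ended without GV replicate 1 (0.75), IVM MII replicate 1 (0.79) or 2 (1.12), and under the strict filter (0.68). Against GV, UBE2A in IVO MII was at -0.44 ± 0.32 and not called, and at -1.06 and called without IVO MII replicate 2.

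UBE2B (chromosome 6, 133411006 to 133434799) fell from GV by both routes. Its libraries stood at 134 and 125 CPM in GV, 61.7 and 79.3 in IVM MII, with 35.7 and 38.8 for IVO MII, and there was no overlap between groups. It was 1.84-fold lower than GV in IVM MII and 3.48-fold lower in IVO MII, and the MII groups differed by 0.92 ± 0.22 on the log2 scale (edgeR adjusted p = 0.0107). The difference between MII groups was not called without replicate 2 of IVM MII (0.73) or replicate 1 of IVO MII (0.86), nor the fall in IVM MII without IVM MII replicate 1 (-0.67). UBE2A per kilobase was 0.338 and 0.483 times UBE2B in GV, 1.84 and 1.13 times in IVM MII, and 0.705 and 1.36 times in IVO MII, so the MII groups overlapped in this ratio. Reads shared between UBE2A and UBE2B, or with processed pseudogenes, may have been counted to another copy. The E3 partner RAD18, which directs this pair to PCNA, was 2.69-fold lower in IVM MII than in GV (15.8 against 42.5 CPM) and 1.81-fold lower in IVO MII. The second of these lost its call without GV replicate 1 (-0.67) or IVO MII replicate 2 (-0.53).

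UBE2T loads ubiquitin for FANCL, the E3 of the Fanconi anaemia pathway of crosslink repair. It stood at 164 and 167 CPM in GV, 254 and 296 in IVM MII, with 473 and 385 for IVO MII, and there was no overlap between groups. It rose 1.66-fold in IVM MII (0.73 ± 0.22) and 2.59-fold in IVO MII (1.37 ± 0.23, edgeR adjusted p = 3.22e-04). The rise in IVM MII lost its call without GV replicate 1 (0.73) or 2 (0.75) or IVM MII replicate 2 (0.64), and under the strict filter (0.47). The difference between MII groups in UBE2T was -0.64 ± 0.22 with an edgeR adjusted p of 0.0563, and DESeq2 (-0.70) and RLE factors (-0.71) called it.

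UBE2C and UBE2S, the E2s of the anaphase-promoting complex, differed widely in abundance. UBE2C, which starts chains on the substrates of the complex, stood at 279 and 307 CPM in GV, 341 and 437 in IVM MII, with 274 and 338 for IVO MII. IVM MII lay above both other groups, yet the excess over GV (0.41 ± 0.23, edgeR adjusted p = 0.165) and over IVO MII (0.34 ± 0.23, adjusted p = 0.309) did not pass. With library totals UBE2C was called higher in IVM MII than in GV (0.69). UBE2S, which extends the chains, stood at 4.32 and 8.29 CPM in GV, 9.07 and 4.29 in IVM MII, with 2.98 and 3.09 for IVO MII. The replicates of UBE2S in GV and in IVM MII lay about as far apart as the groups. It was called 2.08-fold lower in IVO MII than in GV (-1.05 ± 0.42, edgeR adjusted p = 0.0465). That call ended without GV replicate 2 (-0.51) or IVO MII replicate 1 (-1.01) or 2 (-1.07), with limma-voom (-0.98), library totals (-0.97) and the replicate number as a block (-1.06). Against IVO MII, IVM MII had UBE2S at 1.14 ± 0.42 (edgeR adjusted p = 0.0647), which was called without GV replicate 1 (1.14), without IVM MII replicate 2 (1.58) and with no low-count filter (1.16). Per kilobase UBE2C exceeded UBE2S 51.1-fold to 151-fold in every library.

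The subunits of the complex itself moved in both directions. Of 16 tested subunit and activator genes, 8 rose and 5 fell in IVM MII against GV, with 8 higher and 6 lower in IVO MII and medians of 0.70 and 0.23. These are 81.2% and 87.5% of the 16, beside 50.3% and 58.5% of all genes. The 5 falls became 3 when any 1 of the GV or IVM MII libraries was left out, and with library totals. ANAPC10, which helps bind substrates, was 2.39-fold and 3.07-fold higher, and CDC26, a small scaffold subunit, 2.10-fold and 3.10-fold higher. ANAPC13 was 5.38-fold and 9.13-fold lower. Comparing the MII groups, ANAPC13 was the only subunit called, 1.70-fold higher in IVM MII. Its call held in 7 of 14 alternatives and ended without any 1 library (0.66 to 0.89) and with the 4 compared libraries alone (0.80).

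The UBE2D enzymes work with many RING ligases, and their members did not move together. UBE2D2 stood at 22.9 and 16.8 CPM in GV, 37.8 and 39.8 in IVM MII, with 30.1 and 40.2 for IVO MII, and was called higher by both routes (1.95-fold and 1.77-fold). UBE2D4 (chromosome 3, 76478402 to 76508877) stood at 25.6 and 32.2, 16.9 and 16.4, and 7.03 and 9.89 CPM, and was called lower by both routes (1.73-fold and 3.41-fold). UBE2D1 stood at 7.42 and 9.03, 12.2 and 13.8, and 9.16 and 15.9 CPM, and was not called. UBE2D3 did not differ by the test either, at -0.31 ± 0.28 in IVM MII and -0.33 ± 0.28 in IVO MII against GV. UBE2D4 was 1.97-fold higher in IVM MII than in IVO MII (0.98 ± 0.26, edgeR adjusted p = 0.0181), and these groups did not overlap.

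Several UBE2D calls rested on single libraries. That of UBE2D4 between the MII groups ended when either IVM MII library or replicate 1 of IVO MII (0.75) was left out. The call of its fall in IVM MII ended without GV replicate 2 (-0.61), IVM MII replicate 1 (-0.77) or 2 (-0.76), and with library totals (-0.49). The rise of UBE2D2 ended without GV replicate 2 in IVM MII (0.76) and in IVO MII (0.62), and in IVO MII also without replicate 2 (0.61) and under the strict filter (0.51). UBE2D1 was called higher in IVM MII than GV with library totals (0.95) and without IVO MII replicate 1 (0.68) or 2 (0.69), and higher in IVO MII than GV without IVO MII replicate 1 (0.97). These genes are close in sequence, and reads shared between them or with processed pseudogenes may have been counted to another copy.

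Of the related UBE2E genes, UBE2E1 rose by both routes, from 4.84 and 3.38 CPM in GV libraries to 13.0 and 8.70 in IVM MII, with 11.3 and 13.2 for IVO MII. The mature libraries lay above GV and the MII groups overlapped. The rises were 2.64-fold (1.40 ± 0.31) and 2.98-fold (1.57 ± 0.31), and both kept their calls under all 14 alternatives. UBE2E2 and UBE2E3 ranged from 5.14 to 11.6 and from 24.4 to 46.8 CPM and passed in no comparison by the edgeR test. Under the strict filter both were called lower in IVO MII than in GV (-0.97 and -0.75).

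Protein quality control in the endoplasmic reticulum uses UBE2G2 and the membrane-anchored UBE2J1 and UBE2J2. UBE2G2 (chromosome 3, 1937766 to 1971223) stood at 27.9 and 27.1 CPM in GV, 30.5 and 32.6 in IVM MII, with 67.8 and 73.3 for IVO MII. IVO MII stood apart from the other 4 libraries, which lay between 27.1 and 32.6 CPM. UBE2G2 was 2.24-fold lower in IVM MII than in IVO MII (-1.16 ± 0.21, edgeR adjusted p = 0.00229) and 2.57-fold higher in IVO MII than in GV, and both calls held under all 14 alternatives. In IVM MII it was at 0.20 ± 0.21 against GV.

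UBE2J2 fell by both routes, from 24.3 and 41.4 CPM in GV libraries to 7.11 and 6.82 in IVM MII, with 8.97 and 6.66 for IVO MII, 4.72-fold and 4.21-fold lower. UBE2J1 had 25 and 39 counts in GV, 4 and 2 in IVM MII, with 9 and 7 for IVO MII. It passed the count filter through GV alone, which favours a lower value in MII, so its calls are no support for a fall. It was called lower by both routes. In IVO MII the call ended without GV replicate 1 (-2.16) or 2 (-1.53) or IVO MII replicate 2 (-1.62), and with DESeq2 (-1.86). UBE2G1, the paralog of UBE2G2 that extends chains for cullin ligases, stood at 80.5 and 74.1 CPM in GV, 175 and 165 in IVM MII, with 144 and 126 for IVO MII. It rose 2.20-fold and 1.75-fold, and the MII groups did not differ by the test (0.33 ± 0.21). Per kilobase UBE2G1 was 4.12 and 3.91 times UBE2G2 in GV, 8.19 and 7.22 times in IVM MII, and 3.04 and 2.46 times in IVO MII, with no overlap.

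**Figure D3:**
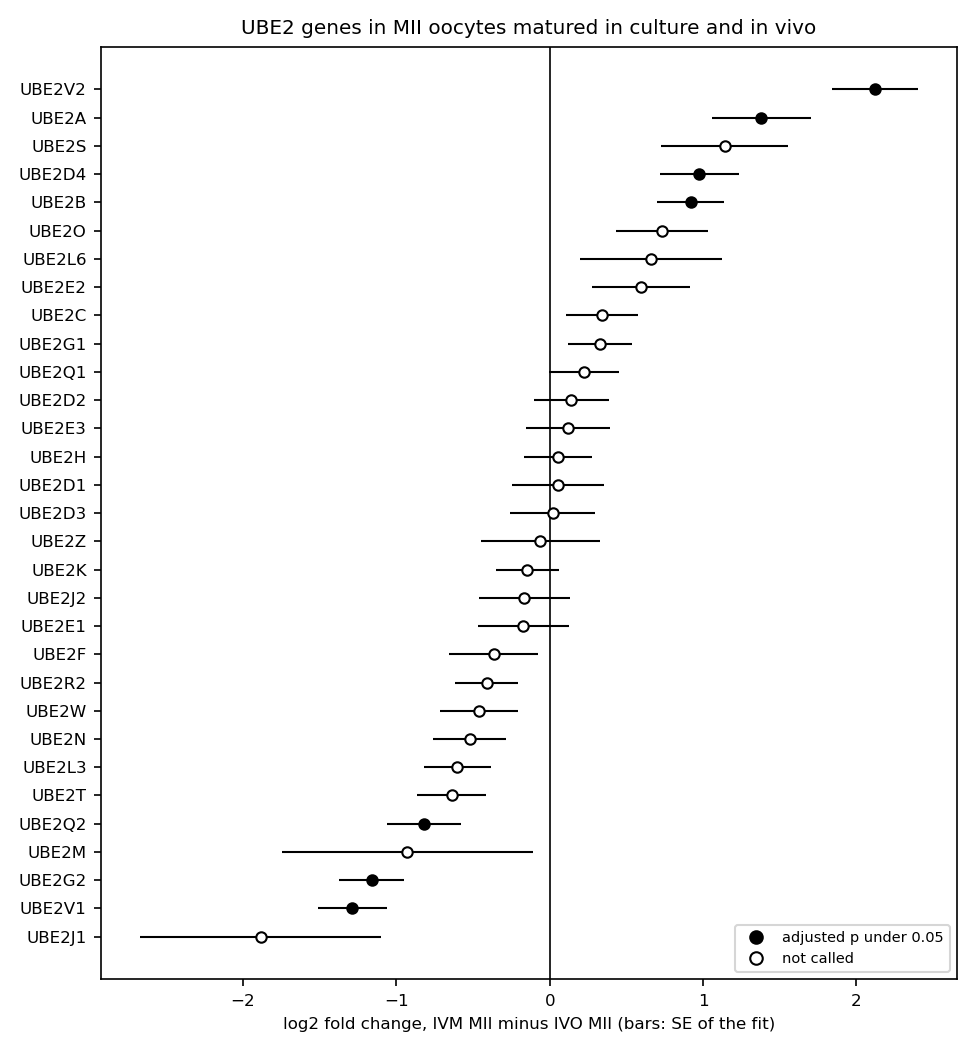
Log2 fold change of the tested UBE2 genes reported here between MII oocytes matured in culture and in the animal (IVM MII minus IVO MII), with bars for the standard error of the fit and filled points for an edgeR adjusted p under 0.05. UBE2V2, UBE2A, UBE2D4 and UBE2B are called higher in IVM MII, and UBE2V1, UBE2G2 and UBE2Q2 lower.

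Among E2s that carry other modifiers, UBE2Z rose by both routes and UBE2F and UBE2L6 fell by both. UBE2M was called lower in IVM MII, but it passed the count filter through GV alone. The MII groups did not differ by the test in UBE2Z (-0.06 ± 0.39), UBE2F (-0.36 ± 0.29), UBE2L6 (0.66 ± 0.46) or UBE2M (-0.93 ± 0.82).

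The SUMO E1 is a pair of UBA2 and SAE1, and its subunits moved in opposite directions in IVO MII. UBA2 stood at 23.6 and 19.4 CPM in GV, 21.5 and 20.2 in IVM MII, with 5.64 and 5.40 for IVO MII, 3.78-fold higher in IVM MII than in IVO MII, a call that held in 14 of 14 alternatives. SAE1 stood at 8.85 and 10.8, 17.3 and 11.3, and 24.0 and 32.8 CPM, 1.98-fold lower in IVM MII than in IVO MII. Its call ended when replicate 2 of IVM MII (-0.71) or of IVO MII (-0.74) was left out and with library totals (-0.75). SUMO2 itself was higher by both routes, at 291 CPM in GV, 508 in IVM MII and 663 for IVO MII. In IVM MII its call ended without GV replicate 2 (0.70) or IVM MII replicate 2 (0.52) and under the strict filter (0.54). SUMO3, close to SUMO2 in sequence and named after its values were seen, was called lower by both routes (-1.72 and -1.90), at 5.99 and 7.17 CPM in GV and 0.464 to 3.02 over the MII libraries. Its fall in IVM MII lost the call without GV replicate 1 (-1.84) or 2 (-1.58) or IVM MII replicate 2 (-1.30). Library totals (-1.39), no low-count filter (-1.69) and the replicate block (-1.63) also ended that call. The fall of SUMO3 in IVO MII lost its call without GV replicate 2 (-1.76) or IVO MII replicate 1 (-1.11), and with no low-count filter (-1.89). Of 13 tested SUMO ligases and proteases, 5 were higher and 1 lower in IVM MII than in GV, 8 and 3 in IVO MII, and 1 higher and 2 lower in IVM MII than in IVO MII, with medians of 0.44, 0.69 and -0.23. The shares called, 46.2%, 84.6% and 23.1%, stand beside 50.3%, 58.5% and 24.6% of all genes. The 5 rises became 2 without GV replicate 2 and 3 without IVM MII replicate 2, the 1 fall became 0 without GV replicate 1 or IVM MII replicate 2, and the 3 falls in IVO MII became 1 without GV replicate 2. Each of the 2 lower than in IVO MII lost its call without IVM MII replicate 1 or 2, without IVO MII replicate 1, and with library totals. With library totals 8 rose and 0 fell in IVM MII against GV.

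NEDD8, the modifier that activates cullin ligases, is carried by UBE2M and UBE2F. UBE2F fell from 23.8 and 39.0 CPM in GV libraries to 4.05 and 4.04 in IVM MII, with 5.22 and 5.20 for IVO MII, 7.75-fold (-2.96 ± 0.30) and 6.02-fold (-2.59 ± 0.30) lower. UBE2M had only 26 and 16 counts in GV, 11 and 2 in IVM MII, with 10 and 7 for IVO MII. It passed the count filter through GV alone, which favours a lower value in MII, so a call is no support for a fall. It was called lower in IVM MII, with an edgeR adjusted p of 0.0367. That call ended without GV replicate 1 or 2 or IVM MII replicate 2 (adjusted p = 0.255, 0.0838 and 0.182), with DESeq2 and with library totals, and the log2 fold change moved from -2.12 to -3.52 without IVM MII replicate 1 and to -1.46 without replicate 2. The modifier gene NEDD8 stood at 52.1 and 57.1 CPM in GV, 16.7 and 21.9 in IVM MII, with 5.18 and 6.59 for IVO MII. It was lower by both routes and 3.28-fold higher in IVM MII than in IVO MII, each call holding in 14 of 14 alternatives. Cullins and their NEDD8 ligase partners, 15 tested, had 4 higher and 0 lower in IVM MII than in GV, 7 and 2 in IVO MII, and 1 and 2 between the MII groups, with medians of 0.22, 0.57 and -0.27. The shares called in either direction were 26.7%, 60% and 20%, the first below the 50.3% of all genes and the others near their 58.5% and 24.6%. By direction, 25.6% of all genes rose and 24.7% fell in IVM MII against GV, and 28.1% and 30.5% in IVO MII. The 2 falls in IVO MII became 1 without GV replicate 1 or either IVO MII library. Between the MII groups, the 1 higher gene lost its call without replicate 2 of IVM MII or of IVO MII. Both lower genes lost theirs without replicate 1 of IVM MII or of IVO MII and with library totals. Leaving out IVM MII replicate 2 also ended the call of 1 of the lower genes.

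UBE2L6, the E2 of the interferon-induced modifier ISG15, stood at 42.5 and 70.8 CPM in GV, 8.01 and 9.09 in IVM MII, with 2.24 and 8.53 for IVO MII. All MII libraries lay below GV, and the MII groups overlapped. It fell 6.63-fold in IVM MII (-2.73 ± 0.47) and 10.5-fold in IVO MII (-3.39 ± 0.49), the latter 6.59-fold without IVO MII replicate 1 and 25.0-fold without replicate 2. Without IVO MII replicate 2 it was also called higher in IVM MII than in IVO MII (1.94). Exons of SMTNL1 on the opposite strand cover 24.8% of its exon bases, and counting took no account of strand. UBE2Z, which is loaded by UBA6 and also carries FAT10, stood at 5.07 and 6.12 CPM in GV, 13.4 and 9.49 in IVM MII, with 6.61 and 17.2 for IVO MII. It was called 2.04-fold and 2.13-fold higher than GV, with its IVO MII libraries far apart. The first call ended without GV replicate 1 (0.91) or 2 (1.18), IVM MII replicate 1 (0.80) or 2 (1.27), and with limma-voom (1.02), RLE factors (0.98) and the strict filter (0.77). The second ended without GV replicate 1 (0.97) or 2 (1.24), IVO MII replicate 2 (0.25), and with limma-voom (0.95) and the strict filter (0.78). UBA6 was higher by both routes, at 29.4, 96.4 and 125 CPM.

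The other 10 ubiquitin E2s, 9 of them tested, had 4 higher and 2 lower in IVM MII than in GV. In IVO MII, 6 were higher and 3 lower than in GV, and between the MII groups 0 were higher and 1, UBE2Q2, lower. Of all genes tested, 50.3%, 58.5% and 24.6% were called in these comparisons. Whether the 9 genes differ from that background was not tested. UBE2K, which builds lysine 48 chains, rose from 36.9 and 36.0 CPM in GV libraries to 100.4 and 88.6 in IVM MII, with 105 and 104 for IVO MII, 2.59-fold and 2.87-fold. UBE2H, the E2 of the CTLH ligase, stood at 155 and 122 CPM in GV, 351 and 356 in IVM MII, with 329 and 351 for IVO MII. UBE2H rose 2.55-fold and 2.45-fold. UBE2R2, a partner of cullin ligases, rose 1.71-fold and 2.27-fold, the first ending without GV replicate 2 (0.66). UBE2W, which joins ubiquitin to the amino terminus of proteins, was called 1.81-fold higher in IVO MII, and the call ended without GV replicate 2 (0.63) and under the strict filter (0.54). In IVM MII UBE2W was at 0.40 ± 0.26, called with library totals (0.67).

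UBE2Q2 and its paralog UBE2Q1 moved in opposite directions in IVO MII oocytes. UBE2Q2 (chromosome 7, 54104606 to 54164582) stood at 696 and 719 CPM in GV, 769 and 945 in IVM MII, with 1522 and 1497 for IVO MII. It was 2.13-fold higher in IVO MII than in GV (1.09 ± 0.24) and 1.76-fold lower in IVM MII than in IVO MII (-0.82 ± 0.24, edgeR adjusted p = 0.0283). The difference between MII groups lost its call without any 1 of the 4 libraries, at -0.65 and -0.97 without IVM MII replicates 1 and 2 and -0.80 and -0.82 without IVO MII replicates 1 and 2. With library totals UBE2Q2 was called higher in IVM MII than in GV (0.56), where TMM gave 0.28. UBE2Q1 fell by both routes, 2.28-fold and 2.66-fold. The ratio of UBE2Q2 to UBE2Q1 per kilobase was 14.3 and 15.9 in GV, 34.8 and 49.5 in IVM MII, with 93.9 and 78.6 for IVO MII, and there was no overlap.

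UBE2L3, which serves HECT and RBR ligases, fell by both routes, 2.79-fold in IVM MII (-1.48 ± 0.22) and 1.84-fold in IVO MII (-0.88 ± 0.22). The MII groups differed in it by -0.60 ± 0.22 (edgeR adjusted p = 0.0644), and DESeq2 (-0.67) and RLE factors (-0.67) called it. A gene listed as LOC102129776, named UBE2L5 in a RefSeq table of a later assembly, stood at 13.2 and 12.5 CPM in GV and 1.76 to 3.71 in the MII libraries. UBE2L5 is close in sequence to UBE2L3, and reads may have been split between them. UBE2O, a large enzyme that combines E2 and E3 activity, ranged from 3.77 to 7.89 CPM. It was called lower in IVO MII than in GV (-0.75 ± 0.30, edgeR adjusted p = 0.0477). Its call ended without either GV replicate (-0.64 and -0.85), IVM MII replicate 1 (-0.75) or either IVO MII replicate (-0.87 and -0.62). DESeq2 (-0.72), limma-voom (-0.76), no low-count filter (-0.75), RLE factors (-0.74) and library totals (-0.68) ended it too.

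**Figure D4:**
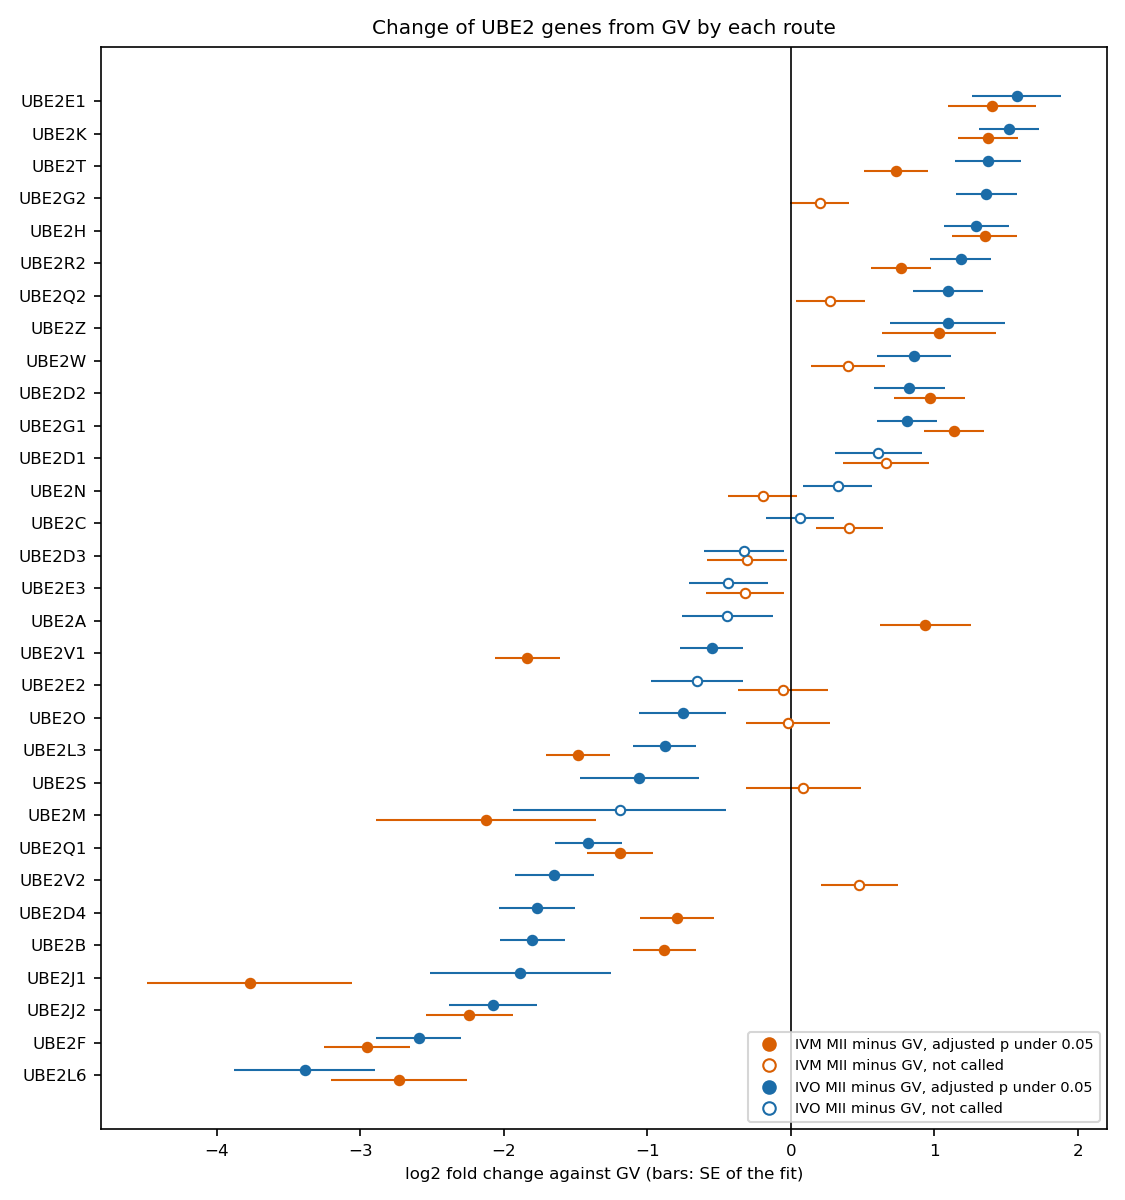
Log2 fold change of the tested UBE2 genes reported here against GV, in IVM MII (orange) and IVO MII (blue), with bars for the standard error of the fit and filled points for an edgeR adjusted p under 0.05, in the order of the IVO MII value. Both routes share the GV libraries. UBE2L6, UBE2F and UBE2J2 are among the lowest by both routes. The 2 routes of UBE2V2, UBE2A, UBE2N and UBE2S lie on opposite sides of 0, and none of these genes is called by both routes.

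Upstream of the E2s, 4 of 9 tested E1 genes rose and 1 fell in IVM MII against GV, 4 and 3 in IVO MII, and 1 higher and 1 lower between the MII groups, with medians of 0.55, 0.46 and 0.04. The shares called were 55.6%, 77.8% and 22.2%, beside 50.3%, 58.5% and 24.6% of all genes. UBA1, the main ubiquitin E1, stood at 22.8 and 18.4 CPM in GV, 62.5 and 41.3 in IVM MII, with 66.5 and 82.6 for IVO MII. It rose 2.52-fold and 3.61-fold, and the MII groups did not differ by the test (-0.52 ± 0.25). Genes for ubiquitin and its relatives mostly went down: 9 of 13 tested were lower and 3 higher in IVM MII than in GV, against 8 and 3 for IVO MII, with medians of -0.90 and -1.01. These are 92.3% and 84.6% of the 13, beside 50.3% and 58.5% of all genes. The 9 became 5 without IVM MII replicate 1 and with library totals, and the 8 became 5 without GV replicate 2. The 3 rises in IVM MII became 1 without GV replicate 2 or IVM MII replicate 2. RPS27A, which encodes ubiquitin fused to a ribosomal protein, fell 4.88-fold and 5.81-fold, and FAU, a ubiquitin-like ribosomal fusion, 6.22-fold and 11.1-fold. Of these 13, NEDD8 and FAU (2 genes) were higher in IVM MII than in IVO MII and 0 lower. FAU was 1.78-fold higher, and its call ended when IVM MII replicate 1 (0.84) or 2 (0.85) was left out, or replicate 1 of IVO MII (0.69). Among the 22 E3 ligases, 11 rose and 1 fell in IVM MII against GV, with 11 and 2 for IVO MII, which is 54.5% and 59.1% of the 22, near the 50.3% and 58.5% of all genes. The 11 rises in IVM MII became 5 without GV replicate 2 and 6 without IVM MII replicate 1, and the 2 falls in IVO MII became 1 without GV replicate 1 or IVO MII replicate 2. BARD1, the partner of BRCA1, rose from 198 CPM to 510.3 and 677.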

How the data were processed

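RNA of wild-type oocytes in 3 groups of 2 libraries was measured as poly(A)-primed, full-length cDNA. The deposited values are raw counts per gene, made by the authors with featureCounts 2.0.1 which counted exon reads per gene of the macFas5 RefSeq annotation and ignored strand, per the file headers. The submitters' processing notes also name fastp, FastQC, Bowtie2 and SAMtools. Gene length is the exon length in that table, so levels per kilobase are CPM divided by it.

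edgeR 4.0.16 in R 4.3.3 kept 15815 genes (filterByExpr), computed TMM factors, and fitted its quasi-likelihood test to all 6 libraries with group as the term and robust dispersions, with 3 residual degrees of freedom. Tests were two-sided, with Benjamini-Hochberg adjustment across every tested gene and a threshold of 0.05. Standard errors are the log2 fold change divided by the root of the F statistic. The depth, 27707021 to 35515139 counts, sets a floor of 3 counts, 0.0695 to 0.116 CPM, which covers counting error only. P-values measure the spread between these libraries, which may be technical. When 1 library is left out, the lone library of its group is assumed to vary like the others.

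The members and the gene lists were chosen with earlier results of these data known. Values in every library are given for members called between the MII groups, E2s of the anaphase-promoting complex or of other modifiers, and the 4 largest rises and falls from GV at 10 CPM or more. Genes of other lists were named if among the 3 lowest adjusted p of a direction. The alternatives were DESeq2 1.42.0, limma-voom (limma 3.58.1), scaling by RLE factors or library totals, keeping all genes with counts, a strict filter (at least 10 CPM in 2 libraries), a fit to only the 4 libraries compared, a block for the replicate number, and leaving out each library. The procedure was tested on simulated data. Figures were drawn with matplotlib 3.10.9. Results for 1 member and 1 ligase are not reported here, though they remain in the counts.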

Additional observations from a re-analysis of the deposited data

How the results depend on the processing

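The 6 counts of E2 genes called were recomputed under 8 other settings and with each of the 6 libraries left out. DESeq2 and RLE factors each gave 6 genes lower in IVM MII than in IVO MII in place of 3, and the 3 were among them; no other count moved by more than 1.5 times under the 8 settings. With 1 library left out, the genes higher in IVM MII than in GV numbered 5 to 11 and those lower 8 to 10. Those higher in IVO MII than in GV numbered 9 to 13 and those lower 9 to 11, and those higher and lower in IVM MII than in IVO MII 2 to 5 and 2 to 3. The number of all genes called also changed with the library left out. No called gene changed direction under any of these alternatives. Calls of single genes ended in 52 of 306 cases with 1 library left out and in 26 of 403 under the other settings. Replicates of the same number deviated together with correlations of -0.19, 0.30 and -0.17 across genes, and no source ties them. Blocking on the replicate number left 10 higher and 10 lower genes in IVM MII against GV, 12 and 11 in IVO MII, and 4 and 3 between the MII groups. Library totals moved 31 of 96 group levels per kilobase by more than 1 SD. UBE2J1, UBE2M and UBE2U are limited by depth.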

Other observations

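Of 8 listed E2 enzymes and E2-like genes without a UBE2 symbol, 2 were higher and 2 lower in each MII group than in GV, and 1 was higher and 0 lower in IVM MII than in IVO MII. These shares, 50%, 50% and 12.5%, lie at or below the 50.3%, 58.5% and 24.6% of all genes. Without GV replicate 2, 1 was higher and 1 lower in IVM MII than in GV, and without IVM MII replicate 2, 2 and 1. The 2 higher in IVO MII became 1 without either GV library, IVM MII replicate 2 or IVO MII replicate 2. ATG3, which carries the autophagy proteins of the LC3 family, stood at 326 and 512 CPM in GV, 337 and 369 in IVM MII, with 70.3 and 98.5 for IVO MII. It was 4.18-fold higher in IVM MII than in IVO MII (2.06 ± 0.28, edgeR adjusted p = 4.04e-04), called in 14 of 14 alternatives. Its E1, ATG7, fell from 542 and 543 CPM in GV to 49.4 and 68.2 in IVM MII, with 63.2 and 51.0 for IVO MII, 9.23-fold and 9.51-fold, with no difference between the MII groups by the test (0.04 ± 0.24).

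In the UFM1 relay, a ubiquitin-like system of the endoplasmic reticulum, the modifier and its E2 moved in opposite directions. UFM1 stood at 34.1 CPM in GV, 77.3 in IVM MII and 84.5 for IVO MII, 2.27-fold and 2.48-fold higher. UFC1, its E2, stood at 26.1 and 25.7 CPM in GV, 2.38 and 3.30 in IVM MII, with 1.97 and 1.19 for IVO MII, 9.12-fold and 16.4-fold lower. BIRC6, a giant E2 and E3 hybrid that restrains cell death, was at 82.0, 173 and 300.1 CPM, and its rise in IVM MII lost the call without GV replicate 2 (0.80).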
